A study of Mus musculus with 6 samples.

Results

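The fragments described here are the DpnII restriction fragments that lie closest to the bait in each of 3 4C-seq experiments, those whose midpoint is within 20 kb of the bait position. The baits are the SCR, an enhancer cluster of Sox2, at chromosome 3 position 34660500, the Satb1 gene at chromosome 17 position 51962000 and the Ikzf1 locus at chromosome 11 position 11583520 (mm9). The deposited tables list 91 such fragments for the SCR bait, 97 for Satb1 and 85 for Ikzf1, in all 273 of the 916352 fragments of the 3 bait chromosomes. Distance from the bait is the only criterion of this rule.

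The data are 6 libraries, each with a read count for every DpnII fragment on the chromosome of its bait. J1 mouse ES cells (strain 129S4/SvJae), grown on irradiated feeder cells and then passaged without them, gave 2 libraries from the SCR bait, made as biological replicates, and 1 from the Satb1 bait. Cells cultured for 6 days without LIF, with 5 μM retinoic acid for the last 4 days, gave 1 SCR library, called NPC (neural precursors). Its labels name J1 as the starting line where the study's methods name F1 ES cells. By the methods these were first cultured without feeders in medium with 2 added inhibitors (2i). If so, ES and NPC also differ in line and in culture before differentiation, and the part of each cannot be told apart. CD4+/CD8+ (double-positive, DP) thymocytes, sorted from the thymus of 4-week-old c57/Bl6 mice, gave 1 library each from the Satb1 and Ikzf1 baits. No mutation or transgene is named, and a fixation of 10 min in 2% formaldehyde is given for all samples. The Satb1 comparison is thus between cell types that also differ in strain and source, and the part of each cannot be told apart. The labels give 0.4% SDS for all nuclei where the methods give 0.7% for thymocytes. If the methods hold, the Satb1 libraries of ES and DP also differ in how the nuclei were treated before digestion. The part of that treatment cannot be told apart either. A 4C file carries no expression values, so the identity of the cells was not checked against marker genes.

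In 4C, fixed chromatin is cut with DpnII, which recognises GATC, and religated, so that the bait fragment becomes joined to fragments that were near it in the nucleus. A second cut with Csp6I, which recognises GTAC, and circularisation then allow the partners to be amplified with bait primers and sequenced. Fragments next to the bait on the chromosome meet it often whatever the folding of the locus, and a 4C profile falls steeply away from the bait for this reason. This zone is commonly treated as background in the search for loops, and incomplete digestion or self-ligation of the bait can add reads beside it. Sox2 is a transcription factor of pluripotent cells, Satb1 a chromatin organiser expressed in thymocytes and Ikzf1 encodes Ikaros, a transcription factor of lymphocytes.

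The sequences beside the bait are shown first because each table leaves out exactly 1 fragment of the digested genome in this range. For the SCR this is the 52 bp fragment at chr3:34660499-34660550, which holds the bait position. The study's user guide shows an example run of SCR ES replicate 1 that removed this fragment for its large share of all reads. Whether the same step removed the unlisted fragment in the other tables was not tested. The plus strand of the SCR unlisted fragment is shown with the GATC sites in capitals, the last being the site that opens the next fragment. The fragment that follows, at chr3:34660551-34660747, had 197 bp and was the fragment with the most reads in ES replicate 1.
SCR unlisted fragment: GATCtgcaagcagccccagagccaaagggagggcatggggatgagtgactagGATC
SCR next fragment: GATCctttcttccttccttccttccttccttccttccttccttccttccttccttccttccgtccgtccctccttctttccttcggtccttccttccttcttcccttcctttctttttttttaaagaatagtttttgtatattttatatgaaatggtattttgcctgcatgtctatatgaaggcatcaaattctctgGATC
For Satb1 the unlisted fragment also holds the bait position. It has 1721 bp, contains 3 Csp6I sites and lies at chr17:51961875-51963595, across an exon of the gene. For Ikzf1 the unlisted fragment has 21 bp and lies at chr11:11583949-11583969. The bait position itself falls in the fragment below it, at chr11:11583154-11583948, which has 795 bp and is listed with reads. The primer sites are not given in the sources used here.
Ikzf1 unlisted fragment: GATCctttttaactctcaaaaGATC

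The fragments within 20 kb held a large share of each library. Of the reads in the file, 26.3% fell within 20 kb in SCR ES replicate 1, 24.8% in ES replicate 2 and 20.1% in NPC. The share was 11.9% in Satb1 ES, 22.6% in Satb1 DP and 27.3% in Ikzf1 DP. Files held from 1847598 to 6447786 reads. These totals, on which the shares and the scaling below rest, include no count for the unlisted fragment. That count can be large. In the user guide's run of SCR ES replicate 1, the removed fragment had a larger share of all reads than the 26.3% given here for all members. For the other libraries its size is not known. All shares and RPM are thus of listed fragments only, and would differ with that fragment counted. The 95% Wilson interval of the share in the shallowest library, Satb1 ES, was 11.8% to 11.9%. Such intervals cover counting error only, since reads that are PCR copies of 1 ligation cannot be recognised in counts. The share of reads that lay near the locus at all also differed: 70.8% of NPC reads lay within 1.5 Mb of the bait, against 85.9% and 84.3% in ES. Taken of the reads within 1.5 Mb, the proximal share was 30.6% and 29.5% in ES and 28.4% in NPC, and the replicates then lay about as far from each other as ES replicate 2 from NPC. By the same denominator it was 17.8% in Satb1 ES, 27.2% in Satb1 DP and 37.1% in Ikzf1 DP.

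Counts were put on 1 scale by setting the total of each file to 1000000 reads (RPM). The mean per fragment was 2891 RPM in SCR ES replicate 1, 2731 in ES replicate 2 and 2211 in NPC. It was 1224 RPM in Satb1 ES, 2330 in Satb1 DP and 3212 in Ikzf1 DP. The fragments 20 to 40 kb away served as the nearest comparison. The mean within 20 kb exceeded theirs 3.47-fold and 3.52-fold in the ES libraries and 3.56-fold in NPC. For Satb1 the excess was 2.62-fold in ES and 5.71-fold in DP, and for Ikzf1 it was 3.83-fold. With 1 library each, the Satb1 difference has no replicate check.

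Nearly every proximal fragment was detected, that is, had at least 1 read. Detection was 87 of 91 fragments in each of the 3 SCR libraries, 92 of 97 in Satb1 ES, 91 of 97 in Satb1 DP and 78 of 85 in Ikzf1 DP. Detection was also near complete from 20 to 40 kb, with 90% of fragments in each SCR library, 97.0% in Satb1 ES, 94.1% in Satb1 DP and all in Ikzf1 DP. Over the whole range from 20 kb to 1.5 Mb it was between 13.9% in Ikzf1 DP and 49.8% in Satb1 ES. Asking for at least 10 reads left 85, 86 and 85 SCR fragments, 90 and 91 Satb1 fragments and 77 Ikzf1 fragments. The same 4 fragments had 0 reads in all 3 SCR libraries, and the 5 undetected Satb1 fragments of the ES library were undetected in DP too. A further Satb1 fragment of 46 bp had 1 read in ES and 0 in DP.

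**Figure D1:**
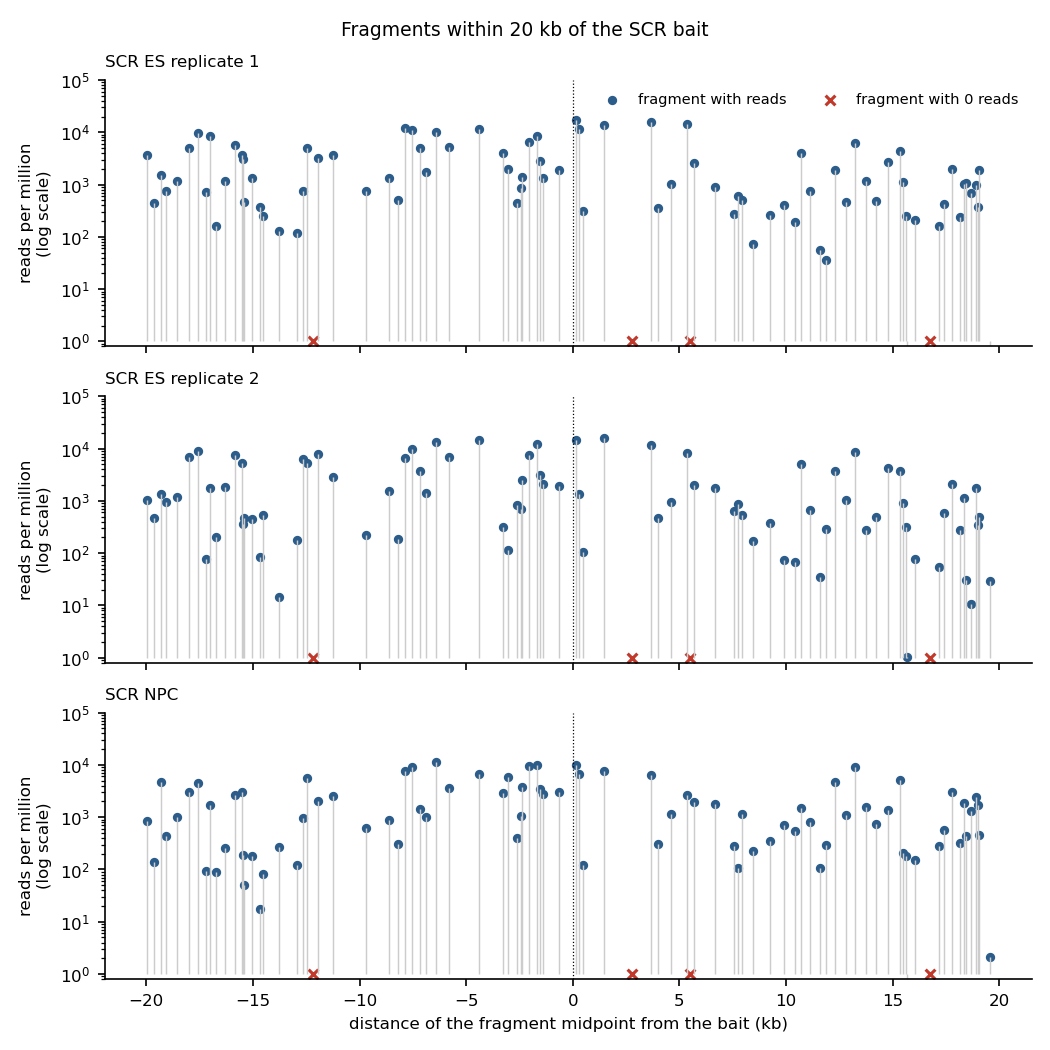
RPM (log scale) of each of the 91 fragments within 20 kb of the SCR bait against the distance of the fragment midpoint from the bait in kb, negative at lower coordinates, with 1 panel for each library. Points are fragments with reads, and crosses are the 4 fragments with 0 reads, which sit at the same places in all 3 libraries.

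Which fragments stayed at 0 followed the sequence at one of their ends. A read starts at a DpnII site and runs into the fragment for 27, 26 or 25 nt for the SCR, Satb1 and Ikzf1 baits, so each end was compared with all DpnII ends of the genome and called unique if no other end had the same bases. A fragment had reads where either of the ends meeting at its lower-coordinate DpnII site was unique, its own lower end or the end of the fragment below. Within 20 kb this held for 87 of 87 SCR fragments in each library, 78 of 78 Ikzf1 fragments and, for Satb1, 92 of 96 in ES and 91 of 96 in DP. Where neither of those ends was unique, 0 of 4 SCR fragments, 0 of 1 Satb1 fragments and 0 of 7 Ikzf1 fragments had reads. All 4 of these SCR fragments had a unique upper end. Conversely, the 4 SCR fragments whose own lower end was repeated but met a unique end from below were all detected, and 1 of them was the 197 bp fragment printed above, whose lower end occurs 4 times in the genome.

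The contrast is shown by the ends below. The first opens that 197 bp fragment, and the second, on the minus strand, is the upper end of the unlisted fragment that meets it at the same site. The next opens a 1089 bp fragment at chr3:34662751-34663839, which had 0 reads in all 3 libraries, and the last is the minus strand end that meets it. GATC is in capitals.
SCR end 1, 4 copies in the genome: GATCctttcttccttccttccttcctt
SCR end 2, 1 copy: GATCctagtcactcatccccatgccct
SCR end 3, 524 copies: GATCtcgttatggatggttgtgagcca
SCR end 4, 5027 copies: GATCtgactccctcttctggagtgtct
End 4 closes the 1565 bp fragment at chr3:34661186-34662750, which had 90776, 62055 and 21859 reads although that end is repeated. Its own lower end occurs 1 time. The pattern held over a wider range: within 100 kb of the SCR bait, 0 of 38 fragments with 2 repeated ends at the lower site had reads in any of the 3 libraries, and 15 of these 38 had a unique upper end. In the same range the 10 fragments with a repeated own lower end and a unique end below it were detected in all 3 libraries. Around Ikzf1 there were exceptions within 100 kb, where 10 of 114 fragments with no unique end at the lower site had reads. For Satb1 it was 1 of 33 in each library. These classes were defined after the counts were seen. How the tables assign a read to a fragment was not tested, and a count printed below for a fragment may include reads that lie in the fragment beneath it.

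In the Satb1 window, 4 undetected fragments were not of this kind, since both their own ends were unique. Of them, 3 follow each other directly, from chr17:51972135 to chr17:51974568, across the most upstream annotated start of Satb1 at position 51972615. They have 171, 422 and 1841 bp, no Csp6I site and 83.0%, 70.9% and 45.4% GC. The 171 bp intronic fragment, the richest in G and C of the undetected fragments, is shown on the plus strand with GATC in capitals.
Satb1 fragment with 0 reads: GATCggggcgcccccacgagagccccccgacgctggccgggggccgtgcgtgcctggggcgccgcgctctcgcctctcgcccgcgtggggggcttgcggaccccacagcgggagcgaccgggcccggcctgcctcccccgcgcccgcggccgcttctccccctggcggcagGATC
The other has 651 bp and 59.1% GC and lies at chr17:51952738-51953388 in an intron. Its lower end runs into a stretch of G.
Satb1 lower end with 0 reads: GATCgggggaggggcgggggcggcgg
The fragment directly below the run of 3, at midpoint 51971917, had 99 reads in ES and 50 in DP against a median over all members of 1080 and 2098. The part of GC content in these zeros was not tested. A GC-rich fragment was not always poor in reads: the Ikzf1 fragment at chr11:11585255-11586405, with 74.9% GC, had rank 3 in its library.

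Short fragments were detected as well. All 8 SCR, 6 Satb1 and 3 Ikzf1 fragments shorter than the sequenced prey had reads. The shortest, 4 bp at chr3:34664490-34664493, had 2326 reads in ES replicate 1, 1849 in ES replicate 2 and 886 in NPC. Its sequence with the next site is only a doubled DpnII site.
SCR shortest fragment: GATCGATC
A read from this fragment must run on into a neighbour, so its count cannot be told apart from that of the neighbour. The members with a Csp6I site had a higher mean than those without in every library. The means were 3821 against 2161 RPM, 3940 against 1782 and 2897 against 1673 in the SCR libraries, in the order ES replicate 1, ES replicate 2 and NPC. They were 2023 against 587 in Satb1 ES, 3563 against 1349 in Satb1 DP and 5235 against 1654 in Ikzf1 DP. Detection was 95.0% of the 40 SCR fragments with a Csp6I site and 96.1% of the 51 without one, in each library. The order was the opposite for the other baits, with 95.3% against 94.4% in Satb1 ES, 95.3% against 92.6% in Satb1 DP and 94.6% against 89.6% in Ikzf1 DP. Few fragments were undetected in either class, so these orders cannot show a difference in detection by Csp6I site.

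Reads were concentrated in few fragments. The top 10 held 48.3%, 47.6% and 43.7% of the proximal reads in SCR ES replicate 1, ES replicate 2 and NPC, 42.2% in Satb1 ES, 42.7% in Satb1 DP and 57.3% in Ikzf1 DP. In Ikzf1 DP, 8 fragments made up at least 50% of the reads, against 11 to 14 in the other libraries.

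In the SCR window, which overlaps no annotated gene, the 197 bp fragment 0.148 kb above the bait had 112390 reads in ES replicate 1, 58206 in ES replicate 2 and 28660 in NPC. This was 17431, 14865 and 9918 RPM, with both ES libraries above NPC. The fragment's own lower end occurs 4 times in the genome, and the unique end at that site belongs to the unlisted fragment holding the bait. The count may thus consist of reads of the unlisted fragment, which was not tested. The 1565 bp fragment at midpoint 34661967 had 14079 RPM in ES replicate 1, 15847 in ES replicate 2 and 7565 in NPC, and again both ES libraries were above NPC. The fragment at chr3:34653739-34654419, 6.42 kb below the bait, ranked first in NPC with 11397 RPM and lay between the ES libraries, which had 10174 and 13630. The 2219 bp fragment at midpoint 34656091, 4.41 kb below the bait, had 11343 and 14284 RPM in ES against 6722 in NPC.

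Other fragments near the bait did not repeat between the ES libraries. The 56 bp fragment at midpoint 34660775, 0.275 kb from the bait, had 74055 reads in ES replicate 1, 5366 in ES replicate 2 and 19517 in NPC, so NPC lay between the replicates. A fragment of 376 bp at midpoint 34679156 had 4540 reads in ES replicate 1 and 42 in ES replicate 2, a 65.6-fold gap in RPM, and 3790 in NPC. Of the 87 fragments with reads, 30 differed by more than 2-fold between the ES replicates, 35 between ES replicate 1 and NPC and 39 between ES replicate 2 and NPC. Over all fragments within 1.5 Mb that had reads in both libraries, 71.9%, 84.4% and 78.4% differed by more than 2-fold in these pairs. The members held a median of 7459 reads in ES replicate 1 where detected, against 132 for detected fragments further out. As a description over the 87 fragments with reads, which share libraries and neighbours, Pearson's r of log10 counts was 0.81 between the ES replicates. It was 0.86 and 0.77 between ES replicates 1 and 2 and NPC. Of the 10 highest fragments, 8 were shared by the ES replicates and 7 by either of them with NPC.

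In the Satb1 window the highest fragment was the same in both cell types, a 1296 bp intronic fragment at chr17:51955165-51956460, 6.19 kb below the bait. It had 17499 reads in ES and 34604 in DP, or 9471 and 17327 RPM. At rank 3 in both was its neighbour at midpoint 51956646, with 5567 RPM in ES and 9660 in DP. Rank 2 differed. In ES it was the fragment at chr17:51965109-51965916, which holds 5 annotated transcript starts of Satb1, with 6249 RPM, and in DP this fragment had 6766 RPM and ranked 12. In DP rank 2 was the intronic fragment at midpoint 51957107, with 11821 RPM against 3966 in ES. The widest gap the other way was at midpoint 51975141, beyond the gene, with 1900 reads in ES and 25 in DP. More than 2-fold differences in RPM were found for 48 of the 91 fragments with reads in both libraries, against 67.3% of all such fragments within 1.5 Mb. As a description over the 91 fragments with reads in both libraries, Pearson's r of log10 counts was 0.66.

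In the Ikzf1 window the fragment holding the bait position had 124337 reads, 5.37% of the file and 19.7% of the proximal reads. The next, at chr11:11582036-11582772 and 1.12 kb below the bait, had 61345 reads or 2.65% of the file. These were the only members of any library above 2% of the reads in the file. The study's user guide describes leaving out fragments above 2% of all reads, as likely undigested material or extreme PCR duplication. That total is taken before fragments are removed and was not known for this library, so the shares given here are not on the same denominator. Both lie in introns of Gm11999, a long noncoding RNA gene on the opposite strand to Ikzf1. Without these 2 fragments the proximal share fell from 27.3% to 19.3%. At rank 3, 2.31 kb above the bait at chr11:11585255-11586405, was the fragment with 38316 reads and 16557 RPM. It holds 7 annotated transcript starts, of Ikzf1 and Gm11999. The neighbouring fragment at midpoint 11584842 overlaps the most upstream Ikzf1 start and had 3184 RPM.

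**Figure D2:**
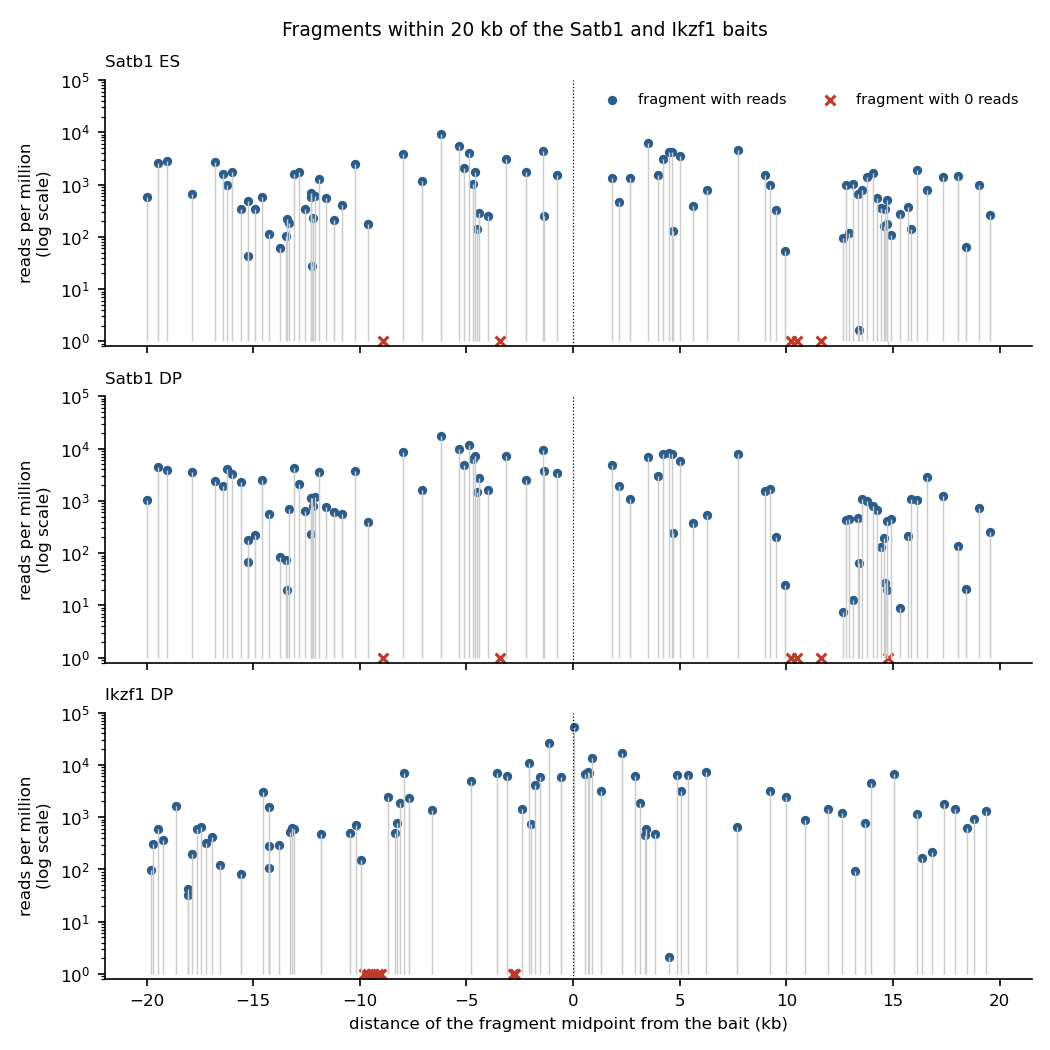
RPM (log scale) of each fragment within 20 kb of the Satb1 bait in ES and DP (97 fragments) and of the Ikzf1 bait in DP (85 fragments) against the distance of the midpoint from the bait in kb, negative at lower coordinates. Crosses mark fragments with 0 reads, and the Ikzf1 fragment at the bait position, with 53729 RPM, is the highest point of the 3 panels.

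The fall of the signal was followed in steps of 2 kb, taking both sides together. In SCR ES replicate 1 the mean went from 7238 RPM in the first step to 1067 in the last, a 6.78-fold fall. In ES replicate 2 it went from 6434 to 701 RPM, 9.18-fold, and in NPC from 5457 to 1205 RPM, 4.53-fold. The 3 SCR profiles had the same outline and none fell evenly. All had their lowest value in the step from 8 to 10 kb, at 557, 431 and 512 RPM, below every step out to 20 kb. Only 6 fragments make up that step, all detected.

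The Satb1 profiles were not highest at the bait. Their mean in the first step was 1887 RPM in ES and 5356 in DP. Both had their highest value from 6 to 8 kb, with 3989 RPM in ES and 7195 in DP, where the fragment with the most reads lies. They were lowest from 14 to 16 kb, with 364 RPM in ES and 547 in DP. From the first to the last step the mean fell 1.53-fold in ES and 3.52-fold in DP. The first Satb1 step holds only 4 listed fragments, since the unlisted one takes up 1721 bp of it.

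The Ikzf1 profile fell from 12179 RPM in the first step to 599 in the last, 20.3-fold. The first step alone held 49.1% of its proximal reads, against 22%, 20.7% and 21.7% in the SCR libraries, 6.36% in Satb1 ES and 9.48% in Satb1 DP. These first steps are not like sets. The Ikzf1 step includes the fragment holding the bait position, with 19.7% of the proximal reads, while for the other baits that fragment is unlisted. The fall from the first step is affected in the same way. A straight line through the log10 step means against log10 distance had a slope of −1.0 ± 0.17 (SE over 10 steps) for Ikzf1. The slope was −0.58 ± 0.22, −0.54 ± 0.27 and −0.56 ± 0.20 for the SCR libraries, −0.41 ± 0.26 for Satb1 ES and −0.63 ± 0.29 for Satb1 DP. Without the first step it was −1.11 for Ikzf1 and −0.64, −0.58 and −0.60 for the SCR libraries. For Satb1 it was then −0.66 in ES and −0.83 in DP. By the median fragment of each step the slope was −0.93 for Ikzf1 and −0.94 for SCR NPC, so Ikzf1 was not the steepest by that measure. The slopes of 1 bait, by the mean over all 10 steps, lay within 1 SE of each other. The SE describes the scatter of the steps about the line, which were not independent measurements.

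**Figure D3:**
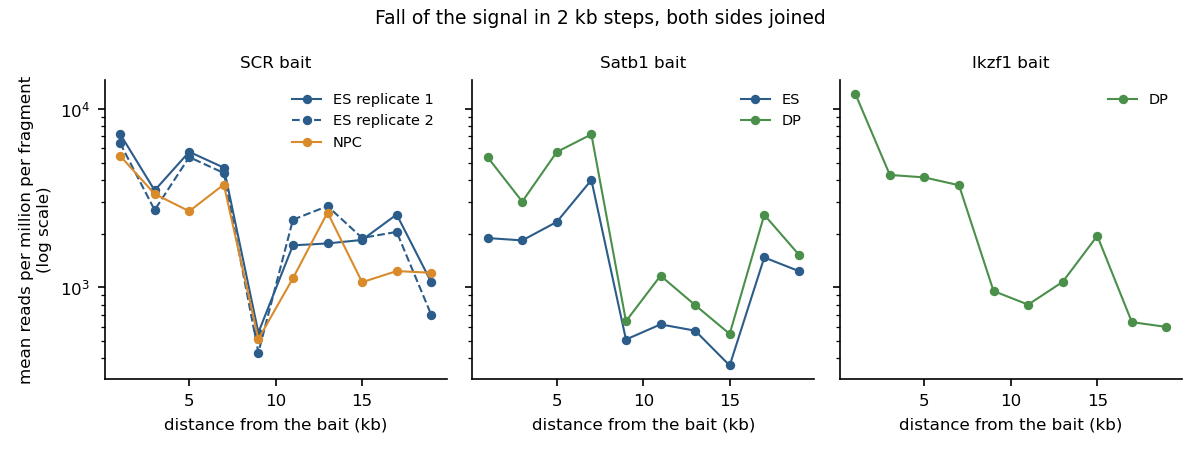
Mean RPM per fragment (log scale) in 2 kb steps of distance from the bait, with both sides joined, for the SCR, Satb1 and Ikzf1 baits. All 3 SCR lines dip from 8 to 10 kb, both Satb1 lines peak from 6 to 8 kb, and the Ikzf1 line starts highest. Only the Ikzf1 line includes the fragment that holds the bait position.

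The 2 sides of the bait did not receive equal shares. The higher-coordinate side held 43.1% of the proximal reads in SCR ES replicate 1, 38.9% in ES replicate 2 and 40.3% in NPC, so the lower side, which faces Sox2 at a distance of 109 kb, held more in all 3. NPC lay between the ES replicates. The numbers of fragments were nearly even, with 45 on the lower and 46 on the higher side, of which 44 and 43 were detected. In the step next to the bait the order was the opposite: the means were 3650 RPM below and 10826 above the bait in ES replicate 1, 4822 and 8047 in ES replicate 2 and 4824 and 6090 in NPC.

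For Satb1 the higher side held 43.1% in ES and 32.7% in DP. On the lower side 48 of 50 fragments were detected in both, and on the higher side 44 of 47 in ES and 43 in DP. The midpoint of the unlisted fragment also lies on the higher side. Satb1 is transcribed towards lower coordinates, and all 50 fragments of the lower side overlap the gene. For Ikzf1 the higher side, into which the gene runs, held 62.1% of the reads in 35 of the 85 fragments. All undetected fragments lie on the lower side, where 43 of 50 were detected, against 35 of 35 on the higher. The balance of reads rested on the fragment at the bait position, whose midpoint lies 0.03 kb above the bait. Without the fragments on either side of the unlisted one the share was 51.3%, and when each fragment was placed at its lower DpnII site in place of its midpoint it was 43.0%. The same change left the other 5 libraries between 33.0% and 43.9%. That placement was chosen after the pattern of the ends was seen.

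**Figure D4:**
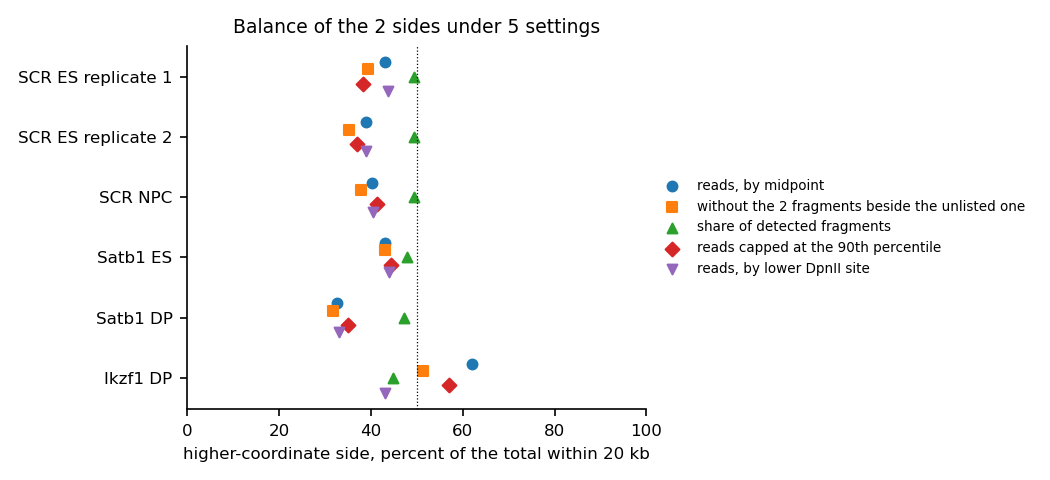
Percent of the total within 20 kb that lay on the higher-coordinate side, by library, for reads placed by fragment midpoint, without the 2 fragments beside the unlisted one, for detected fragments counted once each, for reads capped at the 90th percentile and for reads placed by the lower DpnII site. The dotted line marks 50, and only the Ikzf1 library crosses it between settings, from 62.1% by midpoint to 43.0% by lower site.

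Whether the signal next to the SCR differed between ES and NPC depended on the scale. In RPM the mean over the 91 fragments was 1.31 times NPC in ES replicate 1 and 1.24 times in ES replicate 2. Quantile normalization within 1.5 Mb, used by the plotting tool to set libraries on 1 scale, turned this order. On it the means were 11689 and 11599 in ES and 13239 in NPC, and the ratio of the ES mean to NPC was 0.88. With the reads within 1.5 Mb as denominator it was 1.06. Each pair of ES values lay on 1 side of NPC, but that side changed with the scale. With 2 libraries against 1, no test was made on these means.

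The 2 kb bins around the SCR, counted from the bait, were tested with edgeR's quasi-likelihood test over the 1114 bins within 1.5 Mb that held at least 30 reads. All 20 bins within 20 kb entered. At an adjusted p under 0.05 (Benjamini-Hochberg), 3 of them were higher in ES and 0 were lower, against 1.53% and 0% of all bins. At an unadjusted p under 0.05 the numbers were 7 and 0, against 4.22% and 3.14%. With DESeq2, 0 of the 20 passed in either direction, against 5.47% and 5.77% of the 1006 bins it gave an adjusted p. Bins within 20 kb held a median of 141886 reads over the 3 libraries and all tested bins 1780, so the bins near the bait were measured at greater depth than the rest, and the background share is mostly of shallow bins. The 17 bins called in all had a median of 114131 reads, and 7 of them lay 20 to 100 kb away.

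The first of the 3 bins, from 18 to 16 kb below the bait, had 25298 and 19632 RPM in ES replicates 1 and 2 and 9532 in NPC. Its log2 difference was 1.58 ± 0.38 (SE; adjusted p = 0.00499, edgeR). The second, from the bait to 2 kb above it, had 43304 and 32188 RPM in ES and 24358 in NPC, with a log2 difference of 0.98 ± 0.26 (adjusted p = 0.0174, edgeR). It contains the 197 bp and 56 bp fragments, of which the latter differed widely between the replicates. The 197 bp fragment, whose reads may be those of the unlisted fragment, held 112390 of the 279215 reads of the bin in ES replicate 1. It held 58206 of 126042 in ES replicate 2 and 28660 of 70387 in NPC. The third, from 4 to 6 kb above the bait, had 17850 and 11117 RPM in ES and 5688 in NPC, with a log2 difference of 1.71 ± 0.49 (adjusted p = 0.0407, edgeR). In each bin both ES libraries were above NPC. The log2 differences are on the TMM scale of the fit and were larger than those in RPM. In RPM, ES replicates 1 and 2 over NPC gave 1.41 and 1.04 in the first bin, 0.83 and 0.40 in the second and 1.65 and 0.97 in the third. With library totals the fit gave 1.24, 0.63 and 1.35. The bin from 2 kb below the bait to the bait had 0.11 on the TMM scale, although both ES libraries were below NPC in RPM there.

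In the third bin 1 fragment held much of the signal. This was a 173 bp fragment without a Csp6I site at chr3:34665751-34665923, with 91786 of the 115090 reads of the bin in ES replicate 1, 32027 of 43530 in ES replicate 2 and 7540 of 16437 in NPC. With fragments that have a Csp6I site alone, the log2 difference of that bin was −0.14. The other 2 bins then had log2 differences of 1.47 and 1.03, close to those above, and none of the 3 passed. With DESeq2 the log2 differences were 1.37, 0.78 and 1.51, and none passed. Over the 6 alternatives in which these bins could be followed, the adjusted p ranged from 0.000385 to 0.801 for the first bin, from 0.0104 to 0.928 for the second and from 0.0129 to 0.982 for the third. The first passed in 3 of the 6 and the others in 2 each.

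How the bins within 20 kb compared with the rest in their median log2 difference varied with the setting. It was 0.63 for them and 0.62 for all 1114 bins in the fit described here, and 0.33 for both by library totals. With 4 kb bins it was 0.94 against 0.37 and with no filter on low counts 0.61 against 0.38. Over 5 Mb it was 0.29 against 1.57, and with Csp6I fragments only −0.10 against 0.77. With 1 ES replicate left out no fit was made, and the medians are of TMM-scaled counts, a different measure. They were 0.80 against −0.48 without ES replicate 2 and 0.32 against 0.10 without ES replicate 1. In RPM, both ES libraries were above NPC in 11 of the 20 bins and below it in 6, against 28.7% and 40.1% of all bins. Bins in which both ES libraries lay below NPC included the one from 4 to 2 kb below the bait, with 15358 and 12124 RPM against 23415, where the edgeR log2 difference was −0.43 ± 0.38 (adjusted p = 0.942).

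For Satb1, 1 DP library was set against 1 ES library, so there is no test and no replicate check. In RPM the mean over the 97 fragments was 1.90 times as high in DP as in ES. With the reads within 1.5 Mb as denominator the ratio was 1.53, and after quantile normalization it was 1.12. DP was above ES under each of these scalings. Of the 19 bins of 2 kb with at least 30 reads, 2 were more than 2-fold higher in DP after quantile normalization and 1 was more than 2-fold lower, against 27.5% and 42.3% of the 1209 bins within 1.5 Mb.

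The difference was not the same along the window. The 69 fragments that overlap Satb1 had a mean of 1481 RPM in ES and 3076 in DP, a ratio of 2.08. The 28 fragments beyond the gene, which begin 11.6 kb above the bait, had 591 RPM in ES and 493 in DP, a ratio of 0.84. After quantile normalization the ratios were 1.18 and 0.64, so the order of the 2 groups was the same on both scales. Of the fragments in the gene, 54 were higher in DP by RPM and 11 were higher in ES, while beyond the gene 9 were higher in DP and 18 in ES. The same was not counted for all fragments within 1.5 Mb. Over the 1209 bins there, the median log2 ratio of DP to ES was −0.65 in RPM and −0.52 after quantile normalization. Values lower in DP were thus common in that range and not particular to the fragments just beyond the gene. Distance and gene overlap go together on the higher side. On the lower side, still in the gene, the bin from 20 to 18 kb had 5884 RPM in ES and 9512 in DP, and the bin from 18 to 16 kb had 7655 and 15245. At the same distances above the bait, the bin from 16 to 18 kb had 4094 RPM in ES and 5124 in DP, and the bin from 18 to 20 kb had 2740 and 1154. After quantile normalization the log2 ratio of DP to ES was −0.24 in the bin from 20 to 18 kb below the bait, 0.27 in the next, −0.23 from 16 to 18 kb above the bait and −1.52 from 18 to 20 kb. Bins in the gene could also favour ES on that scale, with −0.35 from 2 to 4 kb and −0.31 from 6 to 8 kb above the bait. The widest bin ratio in favour of DP after quantile normalization was 2.52-fold, in the first 2 kb above the bait, which hold 1 listed fragment with 2488 reads in ES and 9484 in DP.

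**Figure D5:**
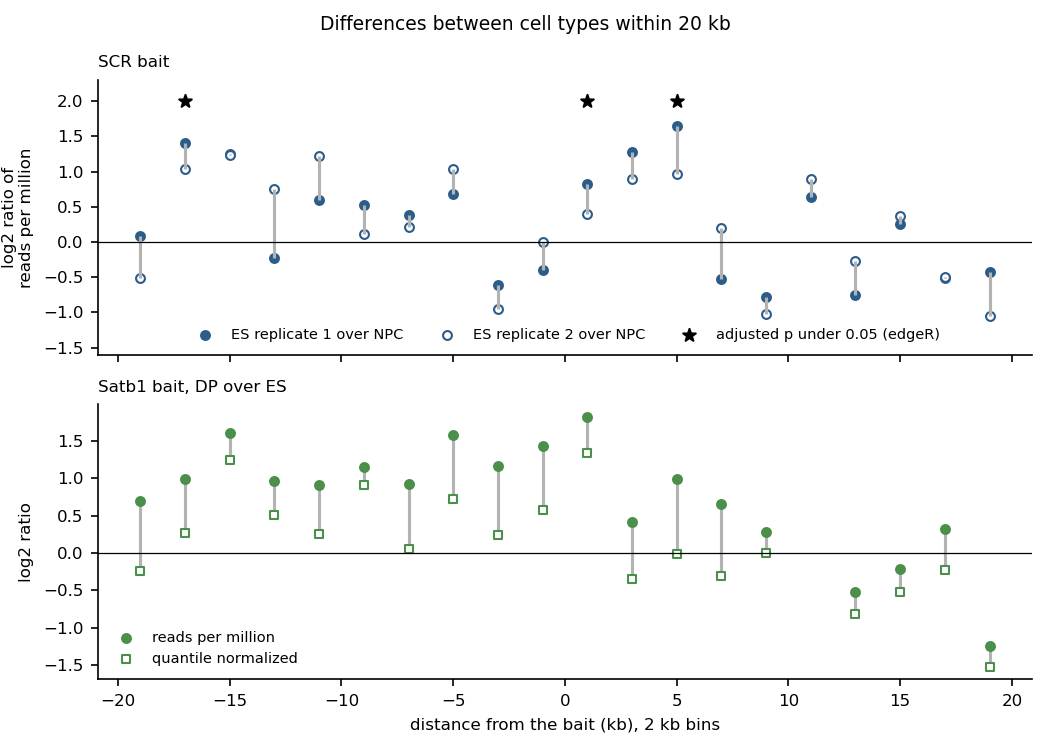
Log2 ratios in 2 kb bins against distance from the bait in kb. In the upper panel each ES library is set over NPC in RPM at the SCR bait, with a line joining the replicates and stars on the 3 bins past an adjusted p of 0.05 by edgeR. In the lower panel DP is set over ES at the Satb1 bait in RPM and after quantile normalization, where the ratios in RPM are above 0 from the lower edge to 10 kb above the bait and below 0 in 3 of the 4 bins beyond 12 kb.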

How the data were processed

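The deposited tables hold raw counts of reads, 1 whole number for each DpnII fragment. Before mapping, the authors removed the bait part of each read with up to 2 mismatches. The prey part was then aligned with Bowtie to mm9, and the submitters' notes give its version as 1.0.0. Counts are not normalized and hold PCR copies. It is not known if the Ikzf1 counts went through the 2% filter of the user guide.

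Fragments were rebuilt from the mm9 sequence and matched to every listed midpoint within 5 Mb. Genes are those of GENCODE vM1. Per library, reads were summed in 2 kb steps, and fragments with at least 1 read were called detected. ES and NPC were compared with edgeR version 4.0.16 (TMM, bins of at least 30 reads over 3 libraries, with 1 NPC library assumed to vary like ES; the SE is the log2 difference divided by the square root of F) and DESeq2 version 1.42.0, in R version 4.3.3. Quantile normalization used limma version 3.58.1, over 1.5 Mb. Tested on simulated data, the bin test found changed bins at a low dispersion but made no calls at the dispersion fitted to these libraries. The changed bins were drawn at random from all tested bins, whose median of reads is far below that within 20 kb. The simulation therefore cannot tell how the test performs on the deep bins near the bait. The 2 kb bins that passed and the 3 fragments with most reads in each library are named. Other fragments named for a gap between libraries, an unusual length or 0 reads were chosen after their values were seen. The members and lists were chosen with earlier results of these data known.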

Additional observations from a re-analysis of the deposited data

How the results depend on the processing

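The count of 3 SCR bins higher in ES became 0 with DESeq2, 1 with no filter on low counts, 1 with 4 kb bins, 0 when fitted over 5 Mb and 0 with only fragments that have a Csp6I site. It was 4 with library totals and 3 with TMM factors from bins beyond 20 kb. In the order of these settings, the bins higher in ES over the whole range were 55 of 1006, 12 of 1288, 18 of 643, 6 of 2060 and 2 of 930. They were 19 of 1114 with library totals and 15 of 1114 with TMM factors from beyond 20 kb. The bin from 4 to 6 kb turned to −0.14 (log2) with Csp6I fragments only. The median log2 ES over NPC of 0.63 became 0.33 with library totals, 0.94 with 4 kb bins, 0.29 over 5 Mb and −0.10 with Csp6I fragments only. Without 1 ES replicate it ranged from 0.32 to 0.80, taken from scaled counts and not from a fit. The ES to NPC ratio of the signal, 0.88 after quantile normalization, turned to 1.27 in RPM and 1.06 relative to the reads within 1.5 Mb, and was 0.97 for the median fragment. With each ES replicate alone set over NPC it was 0.88. The normalization still used all SCR libraries, so this was no check with a replicate left out. The Satb1 DP to ES ratio of 1.12 was 1.90 in RPM, 1.53 relative to the reads within 1.5 Mb, 1.36 for the median fragment and 1.10 without the fragments beside the unlisted one. The 2 bins past 2-fold higher in DP, of 19, became 6 in RPM and 4 relative to the reads within 1.5 Mb. Over all 1209 bins the share higher in DP was 27.5% after quantile normalization, 26.2% in RPM and 22.9% relative to the reads within 1.5 Mb.

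In the order SCR ES replicate 1, ES replicate 2, NPC, Satb1 ES, Satb1 DP, Ikzf1 DP, the proximal share was 30.6%, 29.5%, 28.4%, 17.8%, 27.2% and 37.1% of the reads within 1.5 Mb. Without the fragments beside the unlisted one it was 24.4%, 23.2%, 18.8%, 11.6%, 21.8% and 21.3%. Without fragments above 2% it was 19.3% for Ikzf1. The higher-side share was 39.3%, 35.3%, 37.8%, 43.0%, 31.8% and 51.3% without the fragments beside the unlisted one. Counting detected fragments it was 49.4%, 49.4%, 49.4%, 47.8%, 47.3% and 44.9%. With nearly all fragments detected, this count follows the number of fragments on each side and does not weigh reads. For Ikzf1, 50 members lie on the lower side and 35 on the higher. With counts capped at the 90th percentile it was 38.2%, 36.9%, 41.3%, 44.3%, 35.0% and 57.0%. By the lower DpnII site it was 43.7%, 39.0%, 40.5%, 43.9%, 33.0% and, turned, 43.0%. Causes of these shifts were not tested. Of 12 alternatives for detection and 12 for the slope, 1 moved its value by more than the spread, the slope of NPC by the median fragment, to −0.94.

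No paired analysis was possible because only the SCR ES group has numbered replicates. Each comparison has at most 2 libraries on 1 side and 1 on the other.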
